A study of Mus musculus with 3 samples.

Results

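The subject here was a group of long noncoding host genes of small nucleolar RNAs (snoRNAs), the Snhg genes and Gas5, in cells of the mouse pituitary intermediate lobe (IL). The group was drawn up as 8 genes, Snhg1, Snhg3, Snhg6, Snhg8, Snhg9, Snhg11, Snhg12 and Gas5, because Snhg9 had been seen to be lower in melanotrophs of 1 of the libraries, so that value chose the group and is given only as a description. The study had also placed Snhg9 among genes it picked from these same libraries, which is not independent evidence. Of the 8 listed genes, 4 (Snhg6, Snhg9, Snhg11 and Snhg12) had a row in all 3 count tables, out of 17775 genes in any table. The other 4 (Snhg1, Snhg3, Snhg8 and Gas5) had no row under their symbols or any RefSeq synonym. They were not measured here, and nothing is said of their expression.

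The data were 3 droplet libraries of dissociated ILs, with 1 library per genotype, from mice of 3 months of age. Every genotype carried the tamoxifen-inducible Cre allele Sox9iresCreERT2/+, whose driver Sox9 is active in stem cells (SCs), and the study's methods add a Rosa26ReYFP/+ reporter. WT had no loss of p27, P27NULL was p27-/-, and S2CK was Sox2fl/+;p27-/-, so that 1 copy of Sox2 could be removed only in cells with Cre and their descendants. Tamoxifen was given at 4 weeks of age by the labels and at birth by the study's text, and the sources are not reconciled here. Each library was a pool of animals, described by the study as male for WT and of both sexes for the other pools. With 1 library a genotype there was no replicate and no test, every interval covers counting error only, and the genotypes cannot be told apart from the libraries.

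A snoRNA host gene is transcribed as a longer RNA from which snoRNAs are cut, usually out of introns. Box C/D snoRNAs (the Snord genes) guide methylation of ribosomal RNA, and box H/ACA snoRNAs (the Snora genes) guide its conversion of uridine to pseudouridine. The spliced host RNA that remains is often exported, read by ribosomes over short frames and destroyed by nonsense-mediated decay (NMD), and many hosts start transcription at a pyrimidine tract like that of ribosomal protein genes. The kit captured polyadenylated RNA at its 3′ end, so the values are of the host RNA and not of the snoRNAs. Of the members, Gas5 is known for accumulating in growth-arrested cells and Snhg11 for expression in neurons, and Snhg9 has been tied to lipid uptake in the gut epithelium.

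RefSeq positions on GRCm38.p6 showed that the 4 measured genes differ in architecture. Snhg9 is the shortest, 435 bp on the minus strand at chr17:24719531-24719965, and Snora78 (157 bp, chr17:24719676-24719832) lies inside it. Snhg12 (chr4:132308678-132311024, plus strand) holds 4 snoRNAs, Snora16a, Snora44, Snora61 and Snord99. Snhg6 (chr1:9942025-9944118) holds Snord87 and overlaps the span of Mcmdc2. Snhg11 (chr2:158375713-158386474, plus strand) spans 10762 bp and holds 2 annotated snoRNAs.

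Snhg9 faces a ribosomal protein gene. Its start lies 98 bp from a start of Rps2, which encodes a protein of the small ribosomal subunit, is itself a snoRNA host and runs in the opposite direction, and the RefSeq spans of the genes overlap. The sources used here do not give the strand setting of the counting, so reads of overlapping genes may not be fully separated. The start regions of the pair and of 2 further members are printed because Snhg9 and Rps2 stood in opposite orders over the libraries below. Each runs 5′ to 3′ on the transcribed strand from 60 bases before the start through 40 bases from it, with a pyrimidine tract near the start in capitals.
Snhg9, chr17:24719926-24720025, minus strand: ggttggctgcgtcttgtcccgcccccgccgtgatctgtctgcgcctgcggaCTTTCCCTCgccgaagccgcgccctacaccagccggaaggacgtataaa
Rps2, chr17:24720003-24720102, plus strand: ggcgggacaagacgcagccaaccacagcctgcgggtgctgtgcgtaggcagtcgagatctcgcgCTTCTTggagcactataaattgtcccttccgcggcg
Snhg12, chr4:132308618-132308717, plus strand: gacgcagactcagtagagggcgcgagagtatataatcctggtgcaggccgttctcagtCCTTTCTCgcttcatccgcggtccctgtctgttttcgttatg
Snhg11, chr2:158375653-158375752, plus strand: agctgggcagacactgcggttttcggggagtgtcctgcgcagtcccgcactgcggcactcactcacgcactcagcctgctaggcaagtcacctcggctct

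The capitals mark a C that begins a run of at least 5 C or T within 10 bases of the start, looked for on the transcribed strand alone. The Snhg9 and Rps2 windows share 23 bases, read on opposite strands. Snhg9, Rps2 and Snhg12 held such a run and Snhg11 did not, and Snhg6 had no promoter entry. In Snhg9 the run of 9 bases began 9 bases before the start and ended before it, and in Rps2 it began at base 5 of the transcript. The run was also found in 30.7% of all 32851 start windows. By gene it was found in 34.4% of 27025 genes with a window and in 63.9% of the 61 ribosomal protein genes with a window, so its presence describes these letters only.

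Cells were named from marker genes. Melanotroph-like cells, the main endocrine cells of the lobe, numbered 1278 in WT, 3399 in P27NULL and 3012 in S2CK, and SC-like cells 137, 105 and 92. All 7 melanotroph markers and all 6 SC markers were higher in the cells so named than in the rest of their library. Smaller groups were named gonadotroph-like, Pou1f1-lineage-like (the cells of growth hormone and prolactin), macrophage-like, endothelial-like, connective-tissue-like, T- or NK-like and pituicyte-like (supporting cells of the posterior lobe, with none in S2CK). A further cluster led by Tnnt1 and Nnat stayed unnamed. Members were left out of the clustering.

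The libraries stood apart from each other in ways that bear on every value below. The least UMIs of a cell were 502 in WT, 1005 in P27NULL and 1002 in S2CK, so the lowest depth kept differed. Median UMIs per cell, a UMI being a counted RNA molecule, were 3642.5 in WT, 2740.0 in P27NULL and 4906.5 in S2CK. Sex differed, as all 2020 WT cells lacked Xist, P27NULL held 766 cells called female and 3370 called male, and 3274 of 3488 S2CK cells had Xist. The S2CK table had no row for any of 4 Y-linked genes that had rows in the other tables, and 0 of its 214 cells without Xist had a Y-linked UMI, against 28.7% in WT and 22.4% of such cells in P27NULL, so those 214 cells were not called male. Cdkn1b, the gene of p27, read 34.4 counts per 1e+06 UMIs of a sum (CPM) in WT melanotroph-like cells, 31.4 in P27NULL and 16.8 in S2CK. The deleted stretch is not given in the sources used here, so these 3′ counts do not check the labels. Libraries shared 2 to 4 cell barcodes a pair.

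Snhg9 had a different level in each library. In melanotroph-like cells it gave 1309 UMIs in WT, 7115 in P27NULL and 1759 in S2CK, which is 214.2 CPM (95% Poisson interval 202.8 to 226.1), 537.6 CPM (525.1 to 550.2) and 102.9 CPM (98.1 to 107.8). P27NULL was high and S2CK low, and no interval overlapped another. The log2 ratio of P27NULL against WT was 1.33 (1.24 to 1.41), a level 2.51-fold higher. That of S2CK against P27NULL was -2.39 (-2.46 to -2.31), a level 5.23-fold lower, and that of S2CK against WT was -1.06 (-1.16 to -0.95), a level 2.08-fold lower. Thus S2CK lay below WT as well as below P27NULL, and the P27NULL library, which shares its p27-/- genotype with S2CK, lay above both.

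The difference was present cell by cell. Of melanotroph-like cells, 10.9% in WT, 28.2% in P27NULL and 3.62% in S2CK held 3 or more UMIs of Snhg9, while 44.8%, 24.7% and 60.03% held none. The share of cells with at least 1 UMI was 55.2% in WT, 75.3% in P27NULL and 39.97% in S2CK, although S2CK cells were the deepest, with median depths of 4162.0, 2814.0 and 5018.5 UMIs. With each cell thinned to 1000 UMIs the shares were 18.4%, 40.4% and 8.80%, in the same order, and 1257 of 1278 WT cells were deep enough to be kept. Macrophage-like cells, where Snhg9 was near the level that free RNA would bring, had thinned shares of 7.45%, 16.5% and 1.74%.

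**Figure D1:**
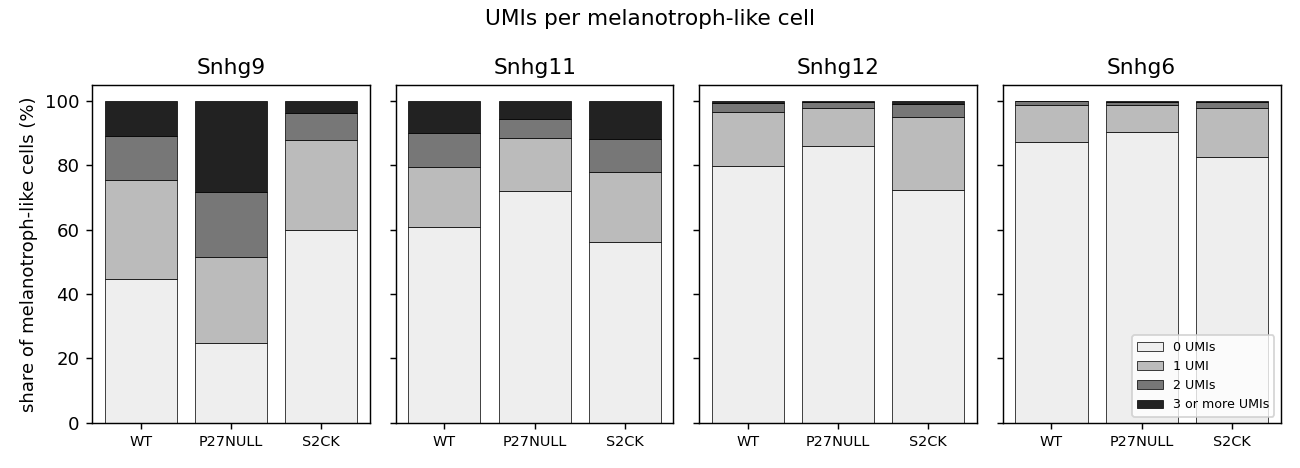
Share of melanotroph-like cells (percent, vertical axis) with 0, 1, 2 or at least 3 UMIs of each host gene in the WT, P27NULL and S2CK libraries. For Snhg9 the darkest part is 28.2% in P27NULL and 3.62% in S2CK, and the other genes do not show this order.

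The order of the libraries was the same in all 4 bins of depth and in the clusters of melanotrophs. Among cells of 2000 to under 4000 UMIs Snhg9 read 190.1 CPM in WT, 566.0 in P27NULL and 101.9 in S2CK, and among cells of 8000 or more 254.1, 551.2 and 118.7. The 5 melanotroph-like clusters of WT ranged from 172.9 to 266.4 CPM, the 8 of P27NULL from 423.6 to 664.0 and the 9 of S2CK from 87.3 to 118.6. No cluster of any library reached the range of another.

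**Figure D2:**
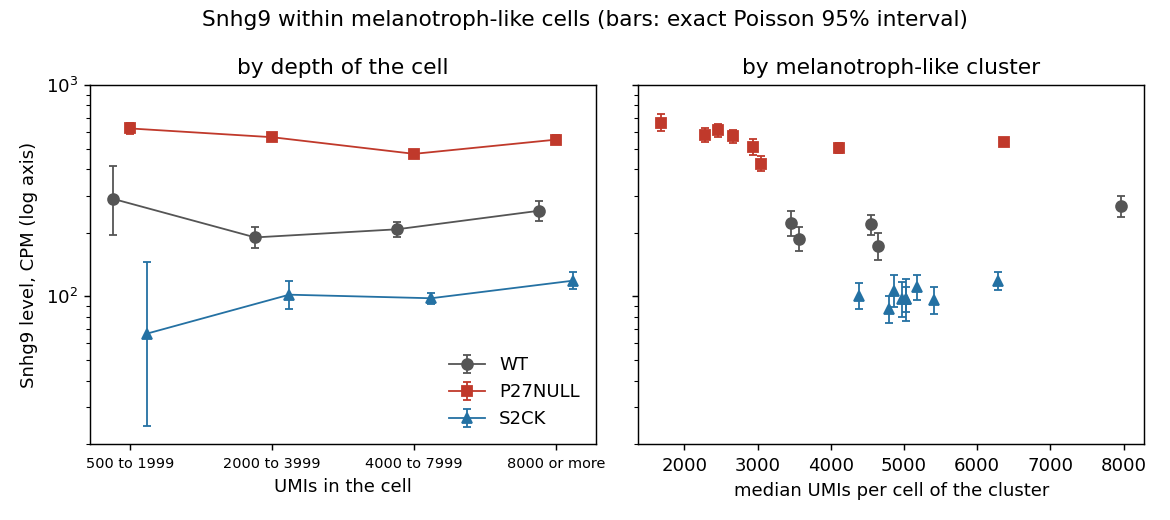
Snhg9 level (CPM, log axis) in melanotroph-like cells by the UMIs of the cell (left) and by cluster, against the median UMIs of its cells (right), with exact Poisson 95% intervals. The P27NULL clusters lie at 423.6 CPM and above, those of WT between 172.9 and 266.4 and those of S2CK at 118.6 and below.

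In melanotroph-like cells of P27NULL the Snhg9 level differed between cells called female and male, by less than the gaps between libraries. The study describes this pool as male and female, without replicate animals of a sex, so sex and animal cannot be told apart. Within P27NULL, melanotroph-like cells called female had 410.5 CPM (387.3 to 434.6, 626 cells) and those called male 574.1 CPM (559.5 to 589.0, 2762 cells), a log2 ratio of -0.48 (-0.58 to -0.39). Against WT, whose cells were male, male P27NULL cells gave 1.42 (1.34 to 1.51). Against female P27NULL cells, the 2893 S2CK melanotroph-like cells with Xist, at 103.5 CPM, gave -1.99 (-2.09 to -1.88), a level 3.97-fold lower. In SC-like cells of P27NULL the female level was 432.2 CPM (267.5 to 660.7, 18 cells) and the male level 302.3 CPM (246.0 to 367.7, 87 cells), with overlapping intervals. Between S2CK and WT no comparison within a sex was made, since S2CK had no cells called male and WT none called female, so sex and genotype cannot be told apart there.

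SC-like cells showed the same order with far fewer counts. Snhg9 gave 78 UMIs in WT, 121 in P27NULL and 44 in S2CK, which is 144.6 CPM (114.3 to 180.4), 319.0 CPM (264.7 to 381.1) and 66.8 CPM (48.6 to 89.7). The log2 ratio of P27NULL to WT was 1.14 (0.72 to 1.57), that of S2CK to P27NULL -2.26 (-2.79 to -1.75) and that of S2CK to WT -1.11 (-1.68 to -0.56). Each of these intervals overlapped that of melanotroph-like cells. The 3 comparisons share libraries, so they are not independent of each other.

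The lower Snhg9 of S2CK was seen outside melanotrophs and SCs too. All 9 types with cells in the 3 libraries had P27NULL above WT and WT above S2CK, 2 of them on very few UMIs. Gonadotroph-like cells had 202.6 CPM in WT, 413.2 in P27NULL and 95.8 in S2CK. Pou1f1-lineage-like cells had 130.3, 248.8 and 72.2 CPM. Macrophage-like cells, which come from blood lineages, had 75.5, 236.0 and 37.8 CPM. Endothelial-like cells had 82.4, 156.3 and 34.7 CPM from 10, 10 and 4 UMIs, and after thinning to 1000 UMIs S2CK gave log2 ratios of 0.0 against P27NULL and 0.16 against WT there, so the order did not hold in them. Connective-tissue-like cells had 168.7, 362.8 and 72.4 CPM and the Tnnt1-led cluster 237.9, 454.6 and 161.6. T- or NK-like cells gave 1, 5 and 1 UMIs, too few to read. The pituicyte-like cells of WT and P27NULL, at 186.6 and 193.2 CPM from 16 and 12 UMIs, differed little, with a log2 ratio of 0.05 (-1.16 to 1.22), and in P27NULL free RNA would bring 175.4 CPM.

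Counting error allowed some of these orders and not others. For S2CK against P27NULL all 9 intervals lay below 0, with log2 ratios from -3.57 to -1.49. For P27NULL against WT 7 of 10 intervals lay above 0, and for S2CK against WT 5 of 9 lay below 0. Only the Tnnt1-led cluster had an interval for S2CK against P27NULL (-1.49, -2.0 to -1.0) that lay apart from that of melanotroph-like cells. The level in S2CK of that cluster was also the only one set apart from its neighbour in the order of types, above melanotroph-like cells. All other neighbours in that order overlapped within each library. From high to low the order in WT began with the Tnnt1-led cluster, melanotroph-like and gonadotroph-like cells and ended with endothelial-like, macrophage-like and T- or NK-like cells. The same 3 groups led in P27NULL and S2CK.

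Free RNA from broken melanotrophs, which enters other droplets, was gauged by Pomc, the hormone precursor of melanotrophs and, by the study, of corticotrophs. In P27NULL the Pomc level ran from 2.25% of that of melanotroph-like cells in Pou1f1-lineage-like to 38.4% in connective-tissue-like cells. Pomc from doublets or made by the cells themselves was not separated from free RNA. Every level given here as that of free RNA rests on Pomc alone and is a guide only. Endothelial-like cells of P27NULL had 2.33% of the Pomc level of melanotroph-like cells, which at the melanotrophs' ratio of Snhg9 to Pomc would bring 12.5 CPM of Snhg9, against 156.3 observed. In gonadotroph-like, Pou1f1-lineage-like and SC-like cells and the Tnnt1-led cluster, 4 of 8 types, the interval of Snhg9 lay above such a level in all 3 libraries. In macrophage-like cells it did not. There, Pomc stood at 37.1% of its melanotroph level in P27NULL, which would bring 199.7 CPM against 236.0 observed (187.2 to 293.8), and 26.4 against 37.8 CPM in S2CK. Connective-tissue-like, endothelial-like and T- or NK-like cells also had at least 1 library whose interval reached that level, such as S2CK endothelial-like cells with 34.7 CPM (9.45 to 88.8) against 14.4. In those 4 types free RNA and expression by the cells cannot be told apart in at least 1 library.

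**Figure D3:**
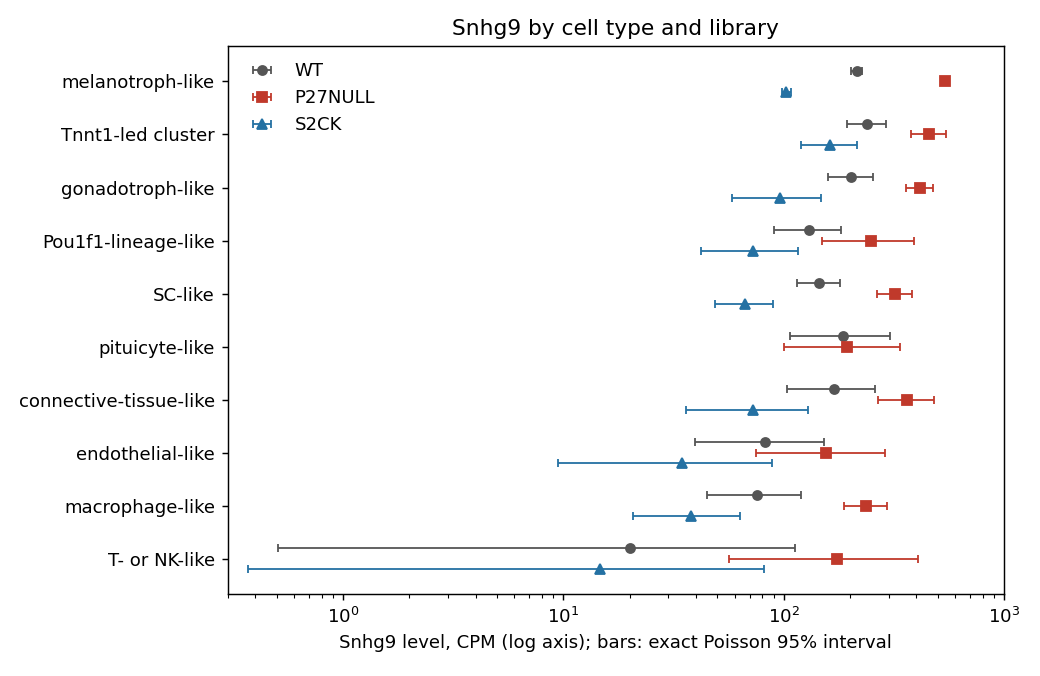
Snhg9 level (CPM, log axis) by cell type (rows) in WT, P27NULL and S2CK, with exact Poisson 95% intervals. P27NULL lies to the right of WT and WT to the right of S2CK in each of the 9 types present in all libraries, and the bars widen in types with few cells.

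Counts of members past 1.5-fold are given beside the share of all genes past that fold. In melanotroph-like cells, 1 of the 4 measured members, Snhg9, was at least 1.5-fold higher in P27NULL than in WT, beside 6.58% of 9982 genes with at least 100 UMIs over both libraries, and no member was 1.5-fold lower, beside 1.78%. For S2CK against P27NULL 1 of 4 was lower, again Snhg9, beside 12.3% of 10953 genes, and none was higher, beside 3.05%. For S2CK against WT 1 of 4 was lower, beside 6.39% of 10229 genes, and none was higher, beside 5.13%. Snhg9 ranked 41st from the highest of these genes for P27NULL against WT. In S2CK it ranked 12th from the lowest against P27NULL and 114th from the lowest against WT. Its S2CK value in these cells chose the group, so nothing is read from that count or its ranks. The median log2 ratio of all genes was 0.09, -0.15 and -0.04 in the 3 comparisons.

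The background was wider in SC-like cells, where genes needed only 20 UMIs. For P27NULL against WT, Snhg6 and Snhg9 were past 1.5-fold higher beside 13% of 5887 genes, and Snhg11 was lower beside 10.8%. The intervals of Snhg6 (1.09, -0.32 to 2.59, from 12 and 8 UMIs) and Snhg11 (-0.68, -2.21 to 0.68, from 7 and 16 UMIs) held 0, and thinning to 1000 UMIs turned the Snhg11 value to 0.26. For S2CK against P27NULL, Snhg6, with an interval that held 0, and Snhg9 were lower beside 19.4% of 6368 genes, and Snhg11 was higher beside 14.3%. For S2CK against WT, where 3 members had enough UMIs, Snhg9 was lower beside 16.9% of 6830 genes and Snhg11 was higher beside 14.2%. That Snhg11 interval held 0 (0.80, -0.10 to 1.76, from 34 and 16 UMIs), and its WT level was not above that of free RNA. Snhg9 ranked 17th from the lowest of 6368 genes for S2CK against P27NULL, and 170th from the highest of 5887 for P27NULL against WT. The study had placed Snhg9 among genes picked from these same libraries, so nothing is read from its counts or ranks here either.

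The other measured hosts did not share the order of Snhg9 in melanotroph-like cells. Snhg12, which holds 4 snoRNAs, read 51.2 CPM in WT (45.7 to 57.2), 42.4 in P27NULL (39.0 to 46.0) and 59.5 in S2CK (55.9 to 63.2). Here S2CK was the highest and P27NULL the lowest, with a log2 ratio of 0.49 (0.34 to 0.64) between them. Snhg6, host of Snord87, read 28.8 CPM in WT (24.7 to 33.4), 28.9 in P27NULL (26.1 to 32.0) and 35.2 in S2CK (32.5 to 38.1). WT and P27NULL overlapped, and S2CK against P27NULL gave 0.28 (0.10 to 0.47). Both genes therefore differed from Snhg9 in direction for S2CK against P27NULL, and neither reached 1.5-fold with all cells of the type. Between S2CK cells with Xist and female P27NULL cells, Snhg6 gave 0.65 (0.28 to 1.04), which is past 1.5-fold.

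Those 2 hosts were too sparse elsewhere to order the libraries. Snhg12 in SC-like cells had 42.6, 42.2 and 51.7 CPM in WT, P27NULL and S2CK from 23, 16 and 34 UMIs, with overlapping intervals. Snhg6 had 14.8, 31.6 and 16.7 CPM there from 8, 12 and 11 UMIs, and its log2 ratio of -0.92 for S2CK against P27NULL had an interval from -2.24 to 0.39. Over all types, 1 of 9 intervals for each of Snhg6 and Snhg12 excluded 0 for S2CK against P27NULL, that of melanotroph-like cells. For P27NULL against WT 0 of 10 did for Snhg6 and 1 of 10 for Snhg12.

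**Figure D4:**
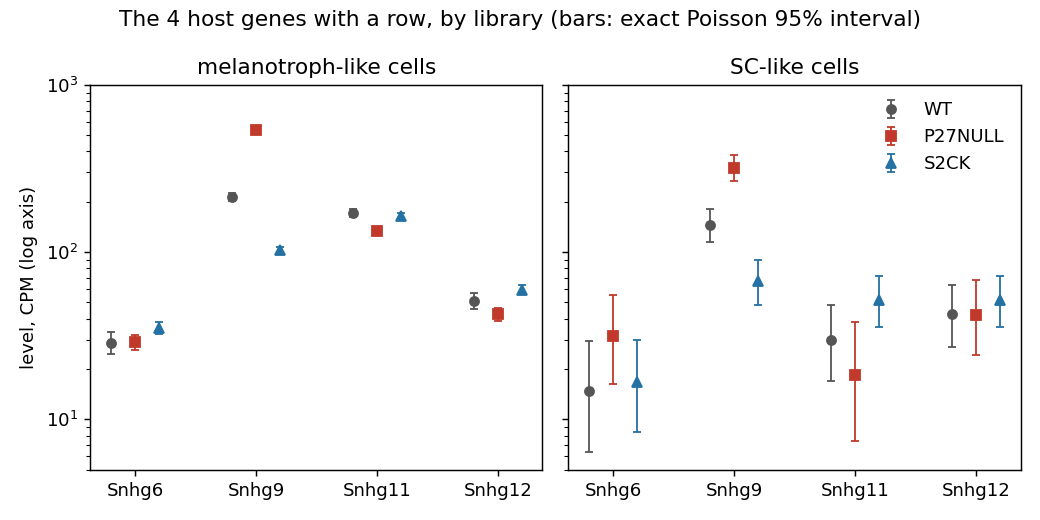
Levels (CPM, log axis) of Snhg6, Snhg9, Snhg11 and Snhg12 in melanotroph-like (left) and SC-like cells (right) of WT, P27NULL and S2CK, with exact Poisson 95% intervals. Snhg9 stands at 537.6 CPM in P27NULL and 102.9 in S2CK melanotroph-like cells, while Snhg11 and Snhg12 are lowest in P27NULL there.

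Snhg11, the neuronal host, was higher in melanotroph-like than in SC-like cells of each library. Melanotroph-like cells had 171.5 CPM in WT (161.3 to 182.2), 134.6 in P27NULL (128.5 to 141.0) and 164.8 in S2CK (158.8 to 171.0). SC-like cells had 29.7, 18.5 and 51.7 CPM, and their intervals lay below those of melanotroph-like cells. The share of cells with a UMI was 39.3%, 28.0% and 43.9% in melanotroph-like cells. It was 4.48%, 5.79% and 7.83% in macrophage-like cells, where the CPM was not above that expected of free RNA, and 0 of 31 WT T- or NK-like cells had one, which allows a share of up to 9.68%. Median depth was 4162.0, 2814.0 and 5018.5 UMIs in the melanotroph-like and 1526.5, 1964.0 and 2540.0 in the macrophage-like cells. Thinned to 1000 UMIs the shares were 13.7%, 11.1% and 12.7% in melanotroph-like cells and 3.19%, 2.48% and 3.48% in macrophage-like cells.

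The widest gap of Snhg11 between libraries was in gonadotroph-like cells. It gave 28 UMIs in WT, 46 in P27NULL and 59 in S2CK, which is 75.6 CPM (50.2 to 109.3), 94.1 CPM (68.9 to 125.5) and 282.5 CPM (215.1 to 364.4). S2CK lay above both others, with a log2 ratio of 1.59 (1.0 to 2.17) against P27NULL and 1.90 (1.23 to 2.60) against WT. In P27NULL this value differed between cells called female and male, where sex and animal cannot be told apart. The 12 P27NULL gonadotroph-like cells called female had 283.9 CPM (162.3 to 461.1), and those called male had 65.1 CPM (43.3 to 94.1), so the female cells of P27NULL overlapped S2CK and the male cells overlapped WT. For Snhg9 the same cells had overlapping intervals, with 408.1 CPM (258.7 to 612.4) in female and 411.7 CPM (353.3 to 477.0) in male cells. A split of Snhg11 by sex also appeared in melanotroph-like cells, with 174.0 CPM (159.0 to 189.9) in female and 124.0 CPM (117.2 to 131.0) in male P27NULL cells, and S2CK cells with Xist against the female cells gave -0.06 (-0.20 to 0.08). The S2CK sum of gonadotroph-like cells also held 21.2% of the Pomc level of melanotroph-like cells, against 3.67% in WT, which would bring 35.0 CPM of Snhg11.

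In other cells the direction of Snhg11 varied. Over all types, 3 of its 7 intervals for S2CK against P27NULL lay above 0, 2 lay below 0 and 2 held 0. For S2CK against P27NULL the log2 ratio was -1.18 (-2.11 to -0.30) in the Tnnt1-led cluster, from 35 and 17 UMIs, of which the S2CK level (57.3 CPM) was not above the 48.7 CPM that free RNA would bring, and -1.82 (-3.51 to -0.16) in Pou1f1-lineage-like cells, from 8 and 7 UMIs. In SC-like cells it was 1.49 (0.29 to 2.90), from 7 and 34 UMIs, although the SC-like level was above the free RNA level only in S2CK. Connective-tissue-like cells had 202.4, 113.4 and 111.9 CPM, and pituicyte-like cells 186.6 in WT and 193.2 in P27NULL.

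Rps2, which faces Snhg9, ran opposite to it. In melanotroph-like cells Rps2 read 1783.7 CPM in WT (1750.3 to 1817.5), 1657.3 in P27NULL (1635.5 to 1679.4) and 2892.2 in S2CK (2866.8 to 2917.8). Its log2 ratio was -0.11 (-0.14 to -0.07) for P27NULL against WT and 0.80 (0.78 to 0.83) for S2CK against P27NULL. SC-like cells had 2329.5, 2069.3 and 3460.5 CPM. In 8 of 9 types S2CK was above WT and WT above P27NULL, the exception being Pou1f1-lineage-like cells with 1791.2 CPM in WT and 1793.9 in P27NULL. Of the genes on either side, Ndufb10, a subunit of respiratory complex I, read 333.8, 313.1 and 416.5 CPM in melanotroph-like cells, and Tbl3, a factor of small subunit assembly, 9.82, 8.91 and 9.71. None of these neighbours shared the low level of Snhg9 in S2CK, and the part of read assignment between overlapping strands in this opposition was not tested.

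Neighbours of the other members were mostly sparse. Trnau1ap, beside Snhg12 and a factor of selenocysteine insertion, read 47.6, 42.9 and 60.8 CPM in melanotroph-like cells, close in library order to Snhg12. Rab42 on its other side read 1.96, 1.51 and 2.46 CPM. Ralgapb beside Snhg11 read 13.4, 18.5 and 13.2 CPM, and Lbp, the carrier of bacterial lipopolysaccharide, 0.16, 0 and 0.23 CPM in melanotroph-like but 107.5, 113.4 and 109.4 CPM in SC-like cells. Mcmdc2, which overlaps Snhg6, read 1.64, 1.44 and 2.40 CPM and Tcf24 1.64, 1.06 and 1.05 CPM.

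Of 11 other noncoding hosts on a list, 4 had a row. In melanotroph-like cells Snhg18 was the only one past 1.5-fold, lower in S2CK than in P27NULL, beside 12.3% of all genes. Snhg18 read 187.7 CPM in WT (177.0 to 198.9), 248.9 in P27NULL (240.4 to 257.5) and 139.5 in S2CK (133.9 to 145.2), in the order of Snhg9 but with smaller steps, the log2 ratio of S2CK against P27NULL being -0.84 (-0.91 to -0.76). The Tnnt1-led cluster, with 131.1, 144.2 and 74.1 CPM, and connective-tissue-like cells, with 489.1, 521.6 and 269.8 CPM, had the same order, with log2 ratios of S2CK against P27NULL of -0.96 (-1.79 to -0.17) and -0.95 (-1.55 to -0.37). SC-like cells, with 105.6, 76.5 and 59.3 CPM, and Pou1f1-lineage-like cells, with 342.6, 209.5 and 85.0 CPM, had WT highest, and gonadotroph-like cells, with 83.7, 28.6 and 91.0 CPM, had P27NULL lowest. Snhg20 read 296.0, 312.9 and 319.5 CPM in melanotroph-like cells, Snhg10 39.3, 47.8 and 49.6, and Snhg16, listed under the symbol 1810032O08Rik, 10.2, 10.1 and 12.3. In SC-like cells 1 of 3 with enough UMIs was lower in S2CK than in P27NULL, Snhg10 with 26.4 and 16.7 CPM, beside 19.4% of all genes. That value rests on 10 and 11 UMIs and its interval held 0 (-0.66, -2.03 to 0.74). Against WT, 2 of 3 were lower in S2CK beside 16.9%, Snhg18 with -0.83 (-1.46 to -0.22) and Snhg10 with an interval that held 0 (-0.63, -1.92 to 0.61).

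Protein-coding hosts, most of which encode ribosomal proteins, did not share the order of Snhg9. All 31 listed had enough UMIs in melanotroph-like cells. For S2CK against P27NULL 0 were lower and 5 higher by 1.5-fold, Rps2, Rps12, Rpl3, Rpl12 and Rabggtb (a prenyltransferase subunit), beside 12.3% and 3.05% of all genes, with a list median of 0.30 beside -0.15 for all genes. Rpl3 went from 727.0 to 1502.9 CPM and Rps12 from 676.9 to 1045.5. Against WT 0 were lower and 6 higher, the same 5 and Rpl32, beside 6.39% and 5.13% of all genes. For P27NULL against WT 0 of 31 differed that far in either direction, beside 1.78% of all genes lower and 6.58% higher. In SC-like cells 9 of 31 were higher and 1, Dkc1 (the pseudouridine synthase of H/ACA particles), was lower in S2CK than in P27NULL, beside 14.3% and 19.4% of all genes. The most abundant, Rps20 and Rpl30, had 4790.4 and 4502.1 CPM in P27NULL and 5135.1 and 5188.0 in S2CK melanotroph-like cells.

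All 77 measured cytoplasmic ribosomal protein genes together gave a similar picture. In melanotroph-like cells their median log2 ratio was 0.00 between P27NULL and WT, and in S2CK it was 0.35 against P27NULL and 0.36 against WT. Of the 77, 17 were higher and 1 lower by 1.5-fold in S2CK than in P27NULL, beside 3.05% and 12.3% of all genes. The 3 most abundant were instead lower in S2CK, within 1.5-fold, with Rpl41 at 11875.6 CPM in P27NULL and 10016.7 in S2CK, Rpl37 at 8142.4 and 6493.8 and Rpl38 at 7886.4 and 5393.6. Ribosomal protein genes took 14.8% of the UMIs of WT melanotroph-like cells, 15.1% of P27NULL and 17.4% of S2CK.

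Among 16 messengers of translation factors with a start tract of the same type (TOP mRNAs), 5 were higher and 2 lower by 1.5-fold in S2CK than in P27NULL melanotroph-like cells, beside 3.05% and 12.3% of all genes. The higher ones were the initiation factor subunits Eif3e, Eif3f and Eif3h, the elongation factor Eef1d and Npm1 (nucleophosmin), the last with 484.6 CPM in P27NULL and 863.9 in S2CK. Pabpc1, the poly(A)-binding protein, was lower in S2CK, at 197.0 and 117.3 CPM. Eef1a1, Tpt1 and Fau, the most abundant, stayed within 1.5-fold. The list median was 0.37.

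Genes of the particles that snoRNAs form, and of the decay that removes host RNA, were mostly within 1.5-fold. Of 11 snoRNP proteins 0 passed 1.5-fold for S2CK against P27NULL in melanotroph-like cells, beside 12.3% of all genes lower and 3.05% higher. Nop10, the most abundant, read 636.1, 590.7 and 404.9 CPM and was the only one lower than in WT, beside 6.39% of all genes. Snu13 read 222.7, 215.0 and 300.5, and Nhp2 58.1, 56.3 and 72.4. Of 9 NMD factors with enough UMIs 1 was lower in S2CK than in P27NULL, beside 12.3% of all genes, Upf2 with 61.5, 71.3 and 35.9 CPM. Upf3b read 65.3, 55.4 and 74.4 and Smg6 31.1, 33.1 and 28.0. In SC-like cells 2 of 7 with enough UMIs were lower in S2CK than in P27NULL, beside 19.4% of all genes, Upf2 (89.6 to 50.1 CPM) and Upf3a (52.7 to 33.4). Whether the stability of Snhg9 RNA differed was not measured.

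Of 4 nuclear long noncoding RNAs, Malat1 and Meg3 had the order of Snhg9 in melanotroph-like cells. Malat1, an abundant nuclear RNA, read 33873.6 CPM in WT melanotroph-like cells, 55344.9 in P27NULL and 28024.5 in S2CK, and 40133.1, 47282.9 and 19358.0 CPM in SC-like cells. It had the order of Snhg9 in 8 of 9 types, gonadotroph-like cells being the exception with 18763.2, 50481.4 and 25999.4 CPM. Its log2 ratio of S2CK against P27NULL in melanotroph-like cells was -0.98, a smaller step than that of Snhg9. Meg3 read 1618.1, 1976.8 and 1264.7 CPM. Kcnq1ot1, with 89.3, 112.7 and 89.9 CPM, did not put S2CK below WT. Neat1 was low in melanotroph-like cells, at 9.49, 23.1 and 16.0 CPM, and read 246.5, 324.2 and 328.1 CPM in SC-like cells. Whether the Malat1 and Snhg9 values have a common source was not tested.

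**Figure D5:**
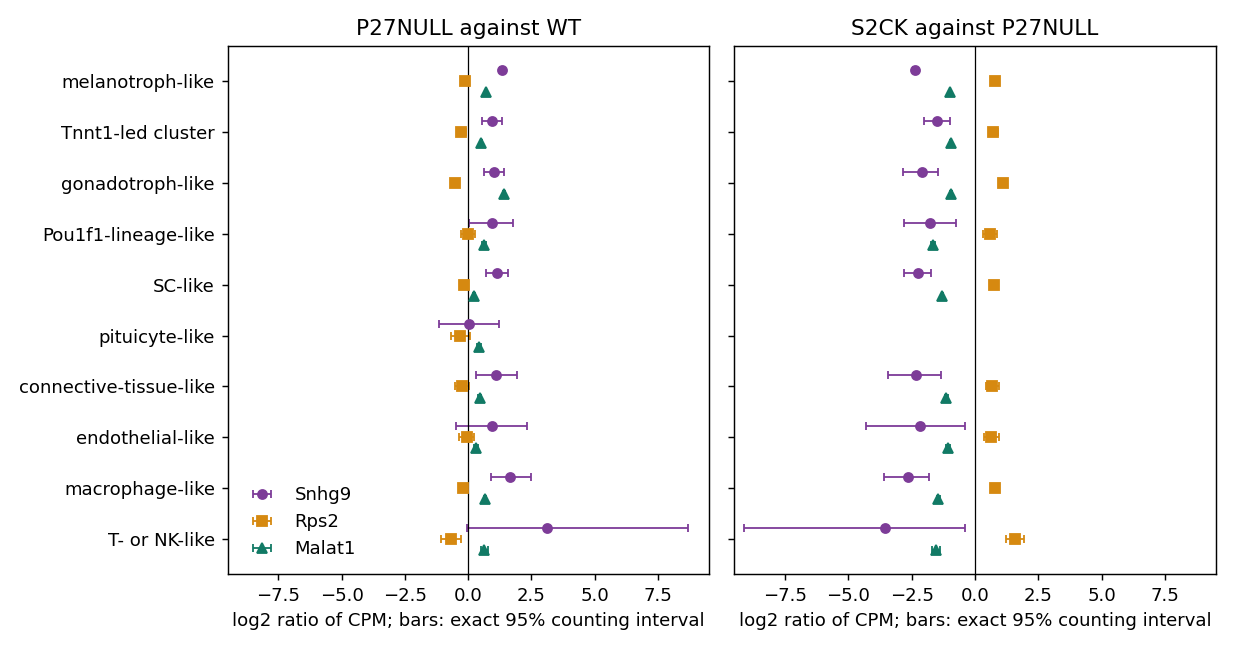
Log2 ratio of CPM (horizontal axis) by cell type for Snhg9, Rps2 and Malat1, for P27NULL against WT (left) and S2CK against P27NULL (right), with exact 95% counting intervals. On the right Snhg9 and Malat1 lie below 0 and Rps2 above 0 in every type shown, with Snhg9 at -2.39, Malat1 at -0.98 and Rps2 at 0.80 in melanotroph-like cells.

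Other measures of the cells differed between the libraries as well. Mitochondrial genes took 5.46% of the UMIs of melanotroph-like cells in WT, 5.11% in P27NULL and 7.47% in S2CK. The 5 immediate early genes (IEGs) of the study, which respond within minutes to stimuli or to dissociation, summed to 3688.8, 2317.2 and 1680.3 CPM in melanotroph-like cells and to 4694.2, 9487.2 and 4309.7 CPM in SC-like cells. In SC-like cells all 5 were higher in P27NULL than in WT by 1.5-fold, beside 13% of all genes. All 5 were lower in S2CK than in P27NULL, beside 19.4%. The study had picked these genes from SCs of the same libraries for such a difference, so nothing is read from these counts. For S2CK against WT 0 of the 5 passed 1.5-fold in SC-like cells, with a median log2 ratio of 0.06, while that of Snhg9 was -1.11. In melanotroph-like cells the 5 were instead highest in WT by their sum. The part of these differences in the Snhg9 values was not tested.

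Across the 22 sums of a cell type in a library with at least 100000 UMIs, the genes with a pattern most like that of Snhg9 were Zc3h15, Atp5e, Malat1, Usmg5 and Hspd1, with Pearson r from 0.858 to 0.861 on the log2(CPM + 10) scale among 7410 genes. Atp5e and Usmg5 encode small parts of the mitochondrial ATP synthase and Hspd1 a mitochondrial chaperonin. Zc3h15 read 231.4, 281.3 and 152.3 CPM in WT, P27NULL and S2CK melanotroph-like cells, Atp5e 3269.7, 3935.1 and 2724.0, Usmg5 1249.9, 1313.0 and 756.8, and Hspd1 248.7, 279.1 and 211.7, all with steps smaller than those of Snhg9. At the other end Rps2 ranked 7409th, with r of -0.88. For Snhg11 the nearest were Sra1, Dad1, Ndufa11, Rom1 and Hsf2, with r from 0.780 to 0.865, and Snhg18 and Snhg20 had r of 0.51 and 0.53. The points share libraries, depths and scaling, so these are descriptions. Gas5 had no row, and no likeness to it could be computed.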

How the data were processed

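The authors prepared 3 libraries with a 10x Genomics 3′ kit, 1 per genotype. Per the labels, processing used Cell Ranger 3.0.2 with STAR 2.5.1b and Seurat 3 in R 3.6.0 on mm10, and each deposited table gives unnormalized UMI counts, with a row per gene and a column per barcode. The tables sum to 8332285 (WT), 15588317 (P27NULL) and 19239147 (S2CK) UMIs over 2020, 4153 and 3488 barcodes, and no column was left unused. The members, lists and tests were chosen with earlier results of these data known.

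Each library was clustered alone on log values of counts scaled to a total of 10000 (2000 variable genes, 20 principal components, 20 neighbours, Leiden resolution 1; scanpy 1.11.5, igraph 0.11.9, Python 3.11.15). Members were left out of the clustering. Clusters took a name from marker lists with at least 3 detected markers, a mean relative level of at least 0.3 and a lead of 0.1, or 3 own markers among the top 10 genes, thresholds set after the data were seen. Types other than SC-like and melanotroph-like came from clusters of the libraries together, and 13, 157 and 8 cells of WT, P27NULL and S2CK stayed without a type. Cells with Xist and no Y-linked gene were called female, and cells without Xist male in WT and P27NULL. Doublets were kept, since Scrublet marked 12 of 9661 cells, too few to have worked, and 1 alternative left out the 268 highest scores.

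Counts were summed per library and type. CPM has an exact Poisson 95% interval and a log2 ratio an exact conditional one, and a share of 0 is limited by 3 counts. These cover counting error only and were tested on simulated counts. Background shares used genes with a row in both tables and at least 100 (melanotroph-like) or 20 (SC-like) UMIs over both libraries, with a fold of 1.5. Alternatives were cell filters, clustering and naming, TMM factors (edgeR 4.0.16, R 4.3.3, used for scaling alone), other totals, thinning and sex of the cells. Named genes were all members, their RefSeq neighbours with rows, the 3 most abundant genes of each list with those past 1.5-fold, and the 5 nearest in pattern. For long lists only examples past 1.5-fold are named, and some items are not reported here.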

Additional observations from a re-analysis of the deposited data

Results flagged for a closer look

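For Snhg11, the S2CK against P27NULL difference had opposite signs in different cells of the same libraries, with counting intervals on opposite sides of 0. The log2 ratio was 0.29 in melanotroph-like cells, against -1.18 in the Tnnt1-led cluster and -1.82 in Pou1f1-lineage-like cells. The difference between cell types was not tested, since each genotype is 1 library. The Pou1f1-lineage-like value rests on 8 and 7 UMIs, and the S2CK level in the Tnnt1-led cluster was not above that of free RNA. In melanotroph-like cells the value was -0.06 between cells with Xist of S2CK and female P27NULL cells.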

How the results depend on the processing

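All 29 Snhg9 ratios in melanotroph-like cells under the alternatives listed above kept their direction and a fold of 1.5 or more. They ran from 1.24 to 1.42 (P27NULL against WT), from -2.54 to -2.0 (S2CK against P27NULL) and from -1.13 to -1.0 (S2CK against WT). Values outside the counting interval were -2.25 with TMM factors, 1.24 (P27NULL against WT) and -2.27 (S2CK against P27NULL) when Pomc and the mitochondrial and ribosomal protein genes were left out of the total, -2.54 with cells thinned to 1000 UMIs, 1.42 for male P27NULL cells against WT and -2.0 for all S2CK cells against female P27NULL cells. In alternatives added after the data were seen, S2CK cells with Xist against female P27NULL cells gave -1.99, and S2CK cells without Xist, which were not called male, gave -1.49 against WT, from 30 UMIs in 119 cells. In SC-like cells all 29 stayed within the interval, from 0.95 to 1.20, from -2.69 to -2.02 and from -1.23 to -1.01. Over all types under the same alternatives, 262 of 267 Snhg9 ratios kept their sign.

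Thinning to 1000 UMIs turned 4 sparse values, where few UMIs were left: Snhg9 in S2CK endothelial-like cells gave 0.0 against P27NULL and 0.16 against WT, Snhg6 in SC-like cells gave 0.19 for S2CK against P27NULL and Snhg11 in the same cells 0.26 for P27NULL against WT. S2CK melanotroph-like cells with Xist against female P27NULL cells gave -0.06 for Snhg11, 0.30 for Snhg12 and 0.65 for Snhg6, the last past 1.5-fold. Shares of genes past 1.5-fold moved with the minimum of UMIs. In melanotroph-like cells, minimums of 20 and 1 UMI gave, for P27NULL against WT, 4.37% and 8.94% lower (1.78% as reported) and 10.9% and 13.4% higher (6.58%), for S2CK against WT 9.85% and 14.4% lower (6.39%) and 8.45% and 10.9% higher (5.13%), and for S2CK against P27NULL 5.31% and 9.28% higher (3.05%), with 18.9% lower (12.3%) at 1 UMI. In SC-like cells, minimums of 50 and 1 gave 5.60% and 22.0% lower (10.8%) and 6.30% and 23.1% higher (13%) for P27NULL against WT and 9.29% and 26.6% higher (14.2%) for S2CK against WT, with 26.3% higher (14.3%) for S2CK against P27NULL at 1 UMI. Joint clustering gave no value for the unnamed cluster. No paired analysis was possible because each genotype has 1 library. Depth limits the types with under 100 cells, and 4 of the 8 genes had no row.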
